A study of Mus musculus with 6 samples.

Results

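The 10 genes examined are Mstn, Gdf11, Inhba, Tgfb1, Tgfb2 and Tgfb3, which encode ligands, Fst, which encodes a secreted antagonist, Acvr2a and Acvr2b, which encode receptors, and Smad7, which encodes an intracellular inhibitor. They were chosen by name, and all 10 were found among the 35976 genes of the deposited tables. Expression was measured by RNA-seq in satellite cells (SCs), the stem cells of adult skeletal muscle, in 3 libraries of NF-YA cKO mice and 3 of NF-YA fl/fl mice. Both genotypes carry floxed NF-YA alleles and received tamoxifen, which the labels give as 20 mg/ml in mice of 5 to 7 weeks. NF-YA cKO mice also carry a tamoxifen-inducible Cre under control of Pax7, so the deletion is limited to Pax7-expressing cells and their progeny, while NF-YA fl/fl mice have no Cre. Per the study's methods, SCs were enriched from hindlimb muscles by depletion of cells bearing CD31, CD45, CD11b or Sca1, plated on Matrigel and collected after 4 days in growth medium with FGF-2.

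Ligands of the TGF-beta superfamily are secreted as precursors, are cleaved to dimers and bind a type II receptor, which activates a type I receptor. Myostatin (Mstn), GDF11 and the activins bind the activin type II receptors ACVR2A and ACVR2B, the TGF-beta ligands bind TGFBR2, and both branches act through SMAD2 and SMAD3. Myostatin is made by muscle and restrains its growth, follistatin (Fst) sequesters activins, myostatin and GDF11, and SMAD7 is induced by the pathway and blocks it. TGF-beta and myostatin are known to hold back the differentiation of cultured myoblasts.

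Total expected counts ranged from 26936230 to 41118984 per library, so that 3 counts are worth 0.0730 to 0.111 CPM, the counts scaled to library size. The entry that the authors added for the deleted NF-YA allele took 22.3% to 34.2% of the Nfya counts in the NF-YA cKO libraries and 0 counts in every NF-YA fl/fl library. Pax7 was present in all libraries, with 171 ± 28.4 CPM for NF-YA cKO against 88.7 ± 15.8 CPM for NF-YA fl/fl (mean ± SD, n = 3). The 6 satellite cell and myoblast markers summed to less in NF-YA cKO (1059 to 1242 CPM against 1750 to 2920 CPM), but did not move together. Of the 5 that were tested, 2 had a log2 fold change above 0 and 3 below, with a median of -0.08. Among them Cdh15 (log2 fold change -1.78) and Des (-2.09) were called lower and none higher. All 8 markers of differentiated muscle, such as Myog and Myh3, were called lower in NF-YA cKO (summed level 49.8 to 125 CPM against 8168 to 10752 CPM), and 6 of 7 macrophage markers were called higher (126 to 242 CPM against 5.39 to 14.5 CPM). Schwann cell markers summed to 69.5 to 77.9 CPM in NF-YA cKO, and to 19.2, 18.8 and 71.0 CPM in the 3 NF-YA fl/fl libraries. Of these 6 markers 4 were called higher, and 1 to 5 over the alternatives. Endothelial markers summed to 13.5 to 18.4 CPM in NF-YA cKO against 4.21 to 8.30 CPM, with 1 of 6 called higher. Pericyte and smooth muscle markers summed to 149 to 213 CPM against 237 to 358 CPM, with 1 of 5 tested called lower. NF-YA fl/fl replicate 3 stood apart from replicates 1 and 2 of its genotype, with 1063 CPM of 7 fibro-adipogenic markers against 2235 and 2863 CPM, and Myod1 at 1146 CPM against 361 and 295 CPM. Where a result of the 10 genes rests on this library, its value without it is given as well. Xist was at 45.5 to 54.5 TPM in the NF-YA cKO libraries and at most 0.03 TPM in NF-YA fl/fl, and the Y-linked Ddx3y was at 16.8 to 25.9 TPM in NF-YA fl/fl and at most 0.02 TPM in NF-YA cKO, although the study's methods name male mice, so that effects of sex and of genotype cannot be told apart. In bulk samples fewer cells of a type and less RNA per cell cannot be told apart either.

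Of the 10 genes, Mstn, Tgfb2 and Tgfb3 were called lower in NF-YA cKO and 0 were called higher. Genes were tested with edgeR's quasi-likelihood test, and the false discovery rate (FDR) was adjusted over all 17348 tested genes. A gene was called where the FDR was under 0.01 and the log2 fold change exceeded 1 in size. The study's methods applied these thresholds with DESeq2. With edgeR, 7.67% of all tested genes were called lower and 4.65% higher, 12.3% in either direction. DESeq2 called 0 of the 10 higher and 4 lower, and 5.68% and 10.4% of all genes it tested. At an unadjusted p under 0.05 edgeR had 2 of the 10 higher and 6 lower, where 24.6% and 24.1% of all tested genes were. With the FDR threshold alone, 7 of the 10 passed, where 20.3% of all tested genes did. These were 5 on the lower side, Mstn, Tgfb2, Tgfb3, Gdf11 and Acvr2a (9.97% of all tested genes), and 2 on the higher side, Tgfb1 and Smad7 (10.3%). This count of 7 was 2, 1 and 2 without NF-YA cKO replicates 1, 2 and 3 (5.98%, 4.45% and 6.28% of all genes), 4 without NF-YA fl/fl replicate 1 (8.43%), 4 with the replicate number as a block (11.1%) and 3 with limma on either TPM scale (7.82% and 9.28%). It was 8 with DESeq2 (31.9% of all genes), with no filter (13.6%) and without NF-YA fl/fl replicate 3 (30.6%). For 8 of the 10 genes the CPM values of the genotypes did not overlap, but this held for 55.3% of all tested genes. NF-YA cKO was above NF-YA fl/fl in every library for 2 of the 10 (29.1% of all tested genes) and below for 6 (26.2%). Their median log2 fold change was -0.82, and that of all tested genes -0.02. The number called lower was 1 without NF-YA cKO replicate 2 and 5 without NF-YA fl/fl replicate 3.

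**Figure D1:**
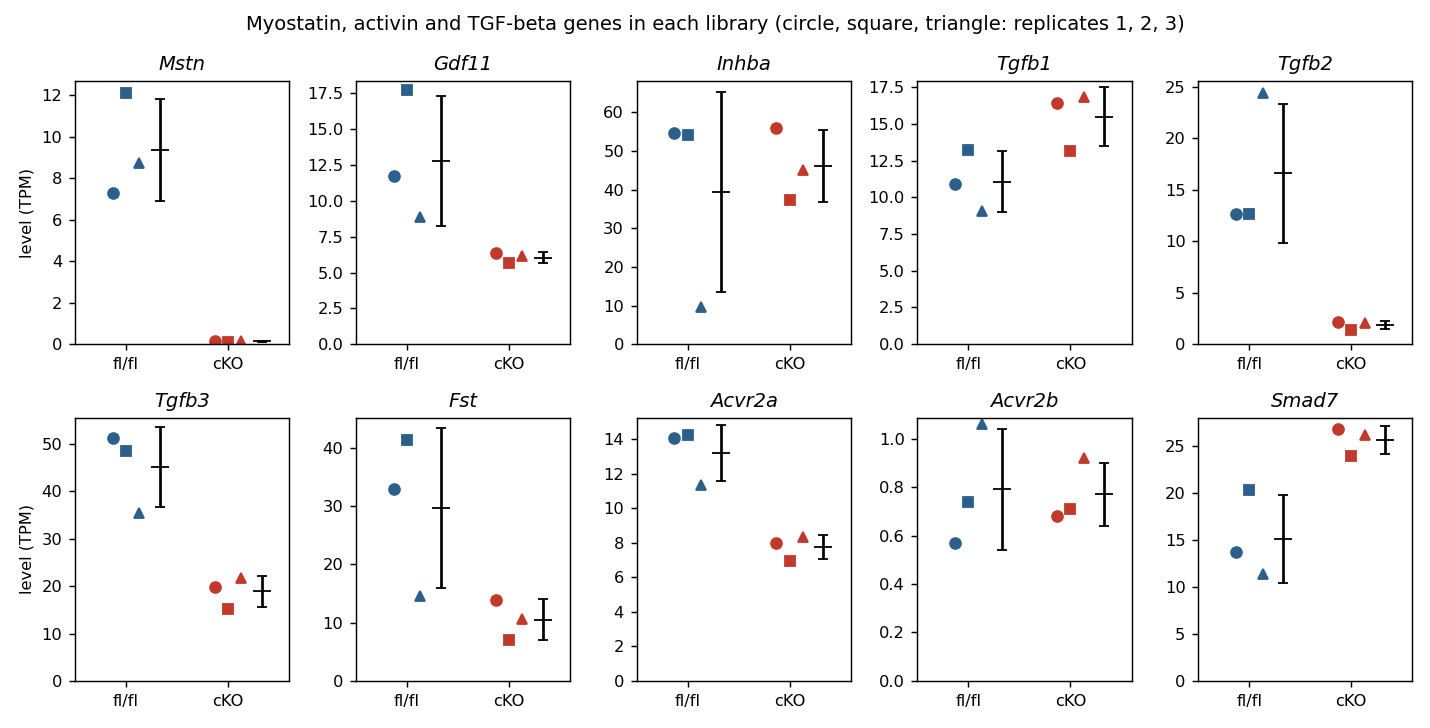
Level of the 10 genes in each library (TPM, linear axes from 0), with NF-YA fl/fl in blue and NF-YA cKO in red; circles, squares and triangles are replicates 1, 2 and 3, and the bar is the mean ± SD of 3 libraries. Mstn lay at 0.12 to 0.14 TPM in NF-YA cKO and at 7.27 to 12.1 TPM in NF-YA fl/fl. On this scale the Inhba, Tgfb1 and Acvr2b values of the genotypes overlapped.

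NF-Y, the complex that needs NF-YA to bind DNA, recognizes the pentamer CCAAT. Promoter windows (RefSeq, GRCm38.p6, 250 bases before to 50 after the gene's start) were matched for 7 of the 10 genes and were searched for CCAAT on both strands. It was found in the windows of Mstn, Gdf11 and Tgfb2 and in 37.4% of all 32851 windows. The windows of Inhba, Tgfb1, Acvr2a and Acvr2b held none. The Smad palindrome, GTCT followed directly by AGAC, was in 0 of the 7 windows and in 0.213% of all windows. Tgfb3, Fst and Smad7 were not searched. The 4 sites, in Mstn, Gdf11 and Tgfb2, are shown because they match the pentamer. Each is given 5′ to 3′ on the strand of the gene, with CCAAT in capitals.
Mstn, 72 bases before the start, chr1:53061556-53061584, plus strand: gtggagcaggagCCAATcatagatcctga
Gdf11, 220 bases before the start, chr10:128891922-128891950, minus strand: ttggctccgcagCCAATcgcggccgctga
Gdf11, 70 bases before the start, chr10:128891772-128891800, minus strand: gccgggcagcccCCAATcccgcgccgccc
Tgfb2, 130 bases before the start, chr1:186706103-186706131, minus strand: tccacaccccctCCAATggtccagagctc
All 4 sites read CCAAT on the gene's own strand. Binding at these sites was not measured in these data.

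Mstn lies on chromosome 1 of GRCm38 from 53061640 to 53068079, on the plus strand. It was at 0.319, 0.314 and 0.329 CPM in NF-YA cKO replicates 1 to 3, where it rested on 10, 13 and 14 counts, but at 16.5, 22.5 and 23.8 CPM in the NF-YA fl/fl libraries. The genotypes did not overlap. The NF-YA cKO values lay close together, but with so few counts their spread cannot be judged. Mstn fell by 6.01 on the log2 scale (standard error 0.23, edgeR FDR = 4.59e-05), that is, NF-YA fl/fl was 64.5-fold higher. The call held in all 15 alternatives, with log2 fold changes between -6.16 and -3.17, the latter from limma on log2(TPM + 1), a scale that compresses low values. A fall of this size was not particular to Mstn. The 8 markers of differentiated muscle had log2 fold changes between -8.09 and -5.05, with a median of -6.37. The part of differentiated cells in the Mstn level was not tested.

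Gdf11, which encodes the ligand closest in sequence to myostatin, lies on chromosome 10 (128882295 to 128891718). Its level was 9.18, 9.58 and 9.19 CPM in NF-YA cKO and 17.2, 21.3 and 15.7 CPM in NF-YA fl/fl. Every NF-YA cKO library was below every NF-YA fl/fl library, but the log2 fold change of -0.96 (edgeR FDR = 0.00352, standard error 0.15) stayed short of -1. Its FDR reached 0.0342 over the alternatives. Without NF-YA fl/fl replicate 3 it was -1.05 (FDR = 0.00105) and Gdf11 was called lower. On the TPM scale, which allows levels of different genes to be compared per length, Mstn made up 2.08% to 2.23% of the summed Mstn and Gdf11 level in NF-YA cKO and 38.3% to 49.5% in the NF-YA fl/fl libraries (two-sided exact permutation test, p = 0.1 and 0.15 adjusted over 6 ratios; 0.1 is the lowest value that 3 against 3 libraries allow). The sum itself was 6.18 ± 0.379 TPM and 22.2 ± 6.69 TPM (SD, n = 3).

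Inhba (chromosome 13, 16011851 to 16031621) encodes the subunit of activin A. It was at 81.1, 63.2 and 68.6 CPM in NF-YA cKO and at 81.5, 66.7 and 17.0 CPM in the NF-YA fl/fl libraries. Replicate 3 of NF-YA fl/fl was below all other libraries, and the remaining 5 libraries overlapped. The log2 fold change was 0.37 with a 95% interval from -0.81 to 1.54 (FDR = 0.590 from edgeR), and -0.07 without NF-YA fl/fl replicate 3 (FDR = 0.695). The fibro-adipogenic marker Pdgfra was also low in this library, at 21.6 CPM against 132 and 147 CPM in the other NF-YA fl/fl libraries, and its part in the Inhba level was not tested. Inha, which pairs with the Inhba product to form inhibin instead of activin, fell by 3.83 on the log2 scale, from 16.3 ± 2.86 to 1.15 ± 0.149 CPM (SD, n = 3; standard error of the log2 change 0.21, edgeR FDR = 8.73e-05), and was called in all 15 alternatives.

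The 3 TGF-beta genes parted. Tgfb1 (chromosome 7, 25687002 to 25705077) was at 29.0, 27.3 and 30.9 CPM in NF-YA cKO but at 19.5, 19.4 and 19.6 CPM in the NF-YA fl/fl libraries. The CPM values did not overlap, whereas on the TPM scale NF-YA cKO replicate 2 (13.17 TPM) lay just under NF-YA fl/fl replicate 2 (13.21 TPM). The log2 fold change of 0.58 (edgeR FDR = 0.00485, standard error 0.10) passed the FDR threshold and not the fold threshold. Its FDR ranged from 5.61e-06 to 0.108 over the alternatives, and it was not called in any of them. Macrophages are a known source of TGF-beta 1, and their markers summed to more in each NF-YA cKO library than in any NF-YA fl/fl library, as given above. The part of these cells in the Tgfb1 level was not tested.

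Tgfb2 (chromosome 1, 186622792 to 186705989) was at 9.09, 6.97 and 9.05 CPM in NF-YA cKO but at 54.5, 44.8 and 125 CPM in the NF-YA fl/fl libraries. The genotypes were far apart, and NF-YA fl/fl replicate 3 was the highest of all libraries. Tgfb2 fell by 3.16 on the log2 scale (edgeR FDR = 0.00187, standard error 0.41), and by 2.57 without NF-YA fl/fl replicate 3. It narrowly missed the FDR threshold when NF-YA cKO replicate 1, 2 or 3 was left out (FDR = 0.0103, 0.0139 and 0.0109), with a log2 fold change of -3.24, -3.07 and -3.24.

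Tgfb3 (chromosome 12, 86056745 to 86079041) was at 55.9, 50.6 and 63.7 CPM in NF-YA cKO but at 148, 114 and 122 CPM in the NF-YA fl/fl libraries. All NF-YA cKO values were below all NF-YA fl/fl values. Tgfb3 fell by 1.18 on the log2 scale (edgeR FDR = 0.00130, standard error 0.14). Without NF-YA cKO replicate 2 the FDR was 0.0101, with a log2 fold change of -1.14.

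The summed TPM of Tgfb1, Tgfb2 and Tgfb3 was 38.3, 29.8 and 40.6 in NF-YA cKO and 74.9, 74.5 and 68.9 in NF-YA fl/fl, without overlap (exact permutation test, two-sided, p = 0.1). Tgfb1 made up 41.5% to 44.3% of this sum in NF-YA cKO and 13.2% to 17.7% in NF-YA fl/fl, and Tgfb2 4.67% to 5.54% and 16.9%, 17.1% and 35.4% (exact permutation test, p = 0.1 for each, 0.15 adjusted over 6 ratios). The upper Tgfb2 value is that of NF-YA fl/fl replicate 3, without which the difference between the means went from -18.1 to -11.9 percentage points. The share of Tgfb3 was 51.1% to 53.5% in NF-YA cKO and 68.5%, 65.2% and 51.4% in NF-YA fl/fl replicates 1 to 3, so that the overlap came from replicate 3 (exact permutation test, p = 0.3). Its difference was -9.68 percentage points, -14.8 without NF-YA fl/fl replicate 3, and 1.33 when expected counts took the place of TPM. The mixture of TGF-beta transcripts thus held more Tgfb1 and less Tgfb2 in each NF-YA cKO library than in each NF-YA fl/fl library.

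**Figure D2:**
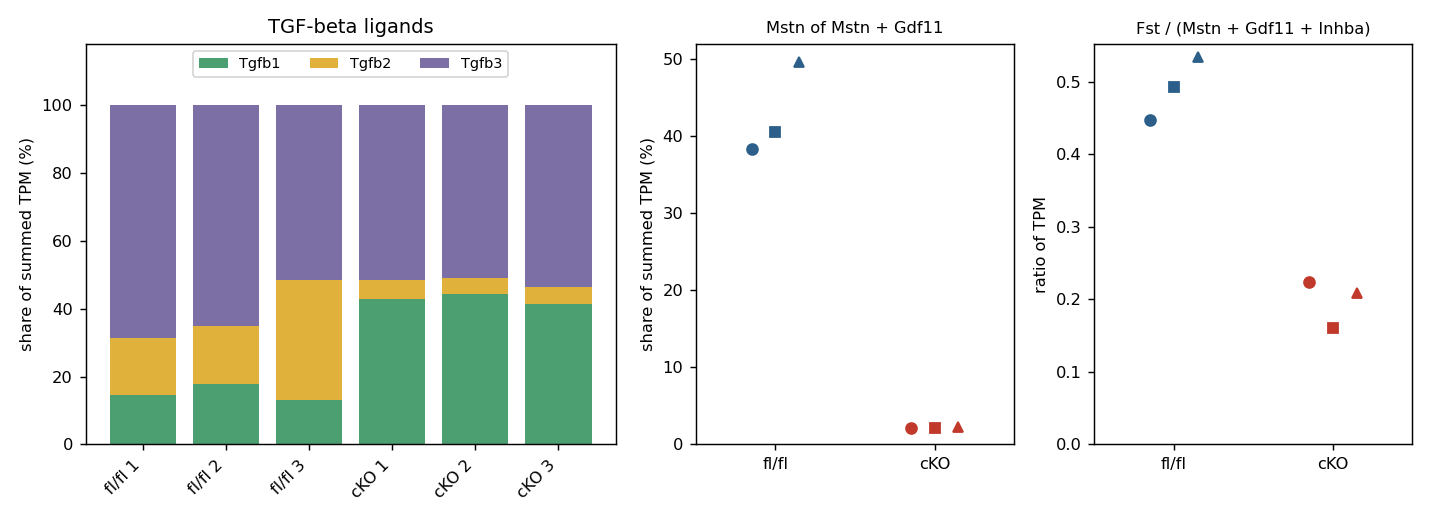
Shares and ratios of TPM in each library. Left, bars stacked from 0 show the share of Tgfb1, Tgfb2 and Tgfb3 in their sum (%); middle, the share of Mstn in Mstn plus Gdf11 (%); right, Fst over the sum of Mstn, Gdf11 and Inhba; circles, squares and triangles are replicates 1, 2 and 3. Tgfb1 took 41.5% to 44.3% in NF-YA cKO and 13.2% to 17.7% in NF-YA fl/fl, and the Fst ratio lay at 0.161 to 0.223 and 0.448 to 0.533.

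Fst (chromosome 13, 114452290 to 114458951) was at 30.3, 17.6 and 23.9 CPM in NF-YA cKO but at 72.5, 74.8 and 38.5 CPM in the NF-YA fl/fl libraries. The genotypes did not overlap, with NF-YA fl/fl replicate 3 nearest to NF-YA cKO. The log2 fold change was -1.37 (standard error 0.30), and its FDR of 0.0120 from edgeR was just over the threshold. Without NF-YA fl/fl replicate 3 it was -1.63 (FDR = 0.00112), and DESeq2 called Fst lower on all 6 libraries (-1.40, FDR = 6.43e-05). Relative to the ligands that follistatin binds, the ratio of Fst to the summed TPM of Mstn, Gdf11 and Inhba was 0.223, 0.161 and 0.208 in NF-YA cKO and 0.448, 0.493 and 0.533 in the NF-YA fl/fl libraries (two-sided exact permutation test, on log2 ratios, p = 0.1, 0.15 adjusted over 6 ratios). NF-YA fl/fl replicate 3, which was low in both Fst and Inhba, did not stand apart in this ratio. The summed level of the 3 ligands overlapped between the genotypes, at 43.1 to 62.5 TPM in NF-YA cKO and 27.2 to 83.9 TPM in NF-YA fl/fl.

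The Fst gene gives a longer form of the protein, which circulates, and a shorter form without the acidic tail, which binds the cell surface. The annotation (GENCODE M21) pairs the 3 Fst transcripts of the tables with proteins of 344, 343 and 317 residues. The transcript of the 317-residue form made up 22.9%, 19.3% and 22.0% of the Fst TPM in NF-YA cKO and 22.2%, 25.3% and 26.3% in NF-YA fl/fl, so that the genotypes overlapped (exact permutation test, two-sided, p = 0.2, 0.422 adjusted over 19 transcripts). The transcripts of 344 and 343 residues overlapped as well, at 55.1% to 63.8% and 57.4% to 63.7%, and at 15.4% to 22.0% and 14.2% to 17.3%.

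Acvr2a (chromosome 2, 48814109 to 48903269) was at 38.2, 39.4 and 41.7 CPM in NF-YA cKO but at 68.7, 57.5 and 66.0 CPM in the NF-YA fl/fl libraries. Every NF-YA cKO value was below every NF-YA fl/fl value. The log2 fold change of -0.69 (edgeR FDR = 0.00290, standard error 0.10) passed the FDR threshold and not the fold threshold, and lay between -0.77 and -0.64 over 15 alternatives, with an FDR of up to 0.0206. Acvr2b (chromosome 9, 119402118 to 119434995) was at 6.25, 7.12 and 7.66 CPM in NF-YA cKO and at 5.20, 5.68 and 11.8 CPM in the NF-YA fl/fl libraries, where replicate 3 was above all other libraries. Its log2 fold change was -0.11 with a 95% interval from -0.89 to 0.67 (FDR = 0.815 from edgeR), and 0.36 without NF-YA fl/fl replicate 3 (FDR = 0.101). In TPM, Acvr2b was at 0.0853 to 0.111 of the Acvr2a level in NF-YA cKO and at 0.0406, 0.0520 and 0.0936 in NF-YA fl/fl, where replicate 3 alone overlapped with NF-YA cKO (exact permutation test, two-sided, p = 0.2). The difference in the log2 ratio was 0.76, against 1.11 without NF-YA fl/fl replicate 3 and 0.50 without NF-YA fl/fl replicate 1.

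The shares of the Acvr2b transcripts in their gene were compared as well. The 10594-nt transcript, paired with a protein of 512 residues, took 80.7%, 67.3% and 71.0% of the Acvr2b TPM in NF-YA cKO and 95.2%, 100% and 91.7% in NF-YA fl/fl. A predicted non-coding entry of 10662 nt took 18.2%, 21.1% and 10.6% in NF-YA cKO and 0%, 0% and 8.35% in NF-YA fl/fl. Neither range overlapped (exact permutation test, two-sided, p = 0.1 for each, 0.38 adjusted over 19 transcripts). The second entry rested on 36.1 to 67.6 expected counts in NF-YA cKO and at most 29.2 in NF-YA fl/fl, and its separation from the first is an estimate of the authors' counting. In Tgfb2 the 4725-nt transcript made up 51.8% to 58.3% in NF-YA cKO and 63.1% to 70.6% in NF-YA fl/fl (p = 0.1 by the exact permutation test, 0.38 adjusted). In Smad7 the share of the 4441-nt transcript overlapped, at 64.6% to 66.6% and 66.6% to 82.2%. Of the 5 Inhba transcripts, the 1529-nt one took 86.8% to 88.1% in NF-YA cKO and 86.5% to 88.1% in NF-YA fl/fl. The share of a 3761-nt Inhba transcript was higher in each NF-YA cKO library (9.30% to 10.3% against 6.79% to 8.41%) and that of a 5527-nt one lower (0.41% to 0.75% against 1.11% to 1.29%), with p = 0.1 by the exact permutation test and 0.38 adjusted for each.

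Smad7 was at 90.2, 94.9 and 91.8 CPM in NF-YA cKO but at 47.0, 58.9 and 49.1 CPM in the NF-YA fl/fl libraries. All NF-YA cKO libraries were above all NF-YA fl/fl libraries. The log2 fold change of 0.84 (edgeR FDR = 0.00189, standard error 0.11) passed the FDR threshold and not the fold threshold, and lay between 0.76 and 0.93 over 15 alternatives. The FDR of Smad7 was over 0.01 without NF-YA cKO replicates 1, 2 and 3 (0.0129, 0.0172 and 0.0139) and with limma on log2(TPM + 1) and log2(TPM + 0.1) (0.0395 and 0.0360).

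**Figure D3:**
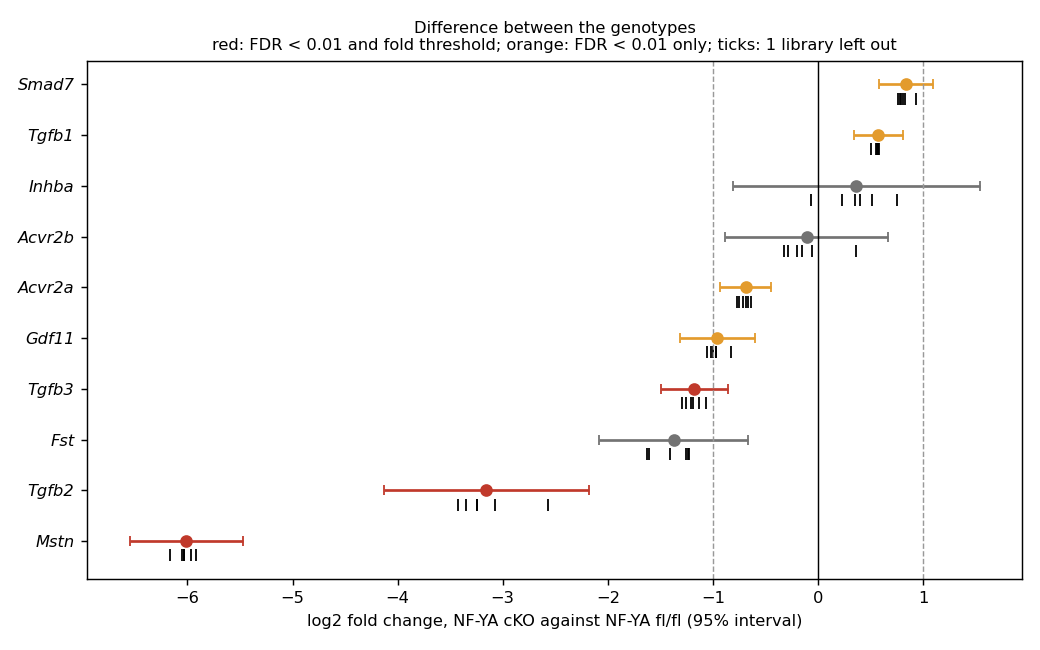
Log2 fold change of each gene, NF-YA cKO against NF-YA fl/fl, with its 95% interval from edgeR's quasi-likelihood fit; black ticks are the values with 1 library left out, dashed lines mark -1 and 1, and red marks called genes, orange those past the FDR threshold only and grey the rest. Mstn at -6.01, Tgfb2 at -3.16 and Tgfb3 at -1.18 were called, Gdf11, Acvr2a, Tgfb1 and Smad7 passed the FDR threshold only, and the intervals of Inhba and Acvr2b span 0.

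Per length, the order of the genes also differed between the genotypes. In NF-YA cKO Inhba was highest (37.3 to 56.0 TPM), followed by Smad7 (23.9 to 26.8 TPM), Tgfb3 (15.2 to 21.7 TPM), Tgfb1 (13.2 to 16.9 TPM), Fst (6.94 to 14.0 TPM), Acvr2a (6.94 to 8.30 TPM), Gdf11 (5.64 to 6.36 TPM), Tgfb2 (1.39 to 2.12 TPM), Acvr2b (0.68 to 0.92 TPM) and Mstn (0.12 to 0.14 TPM). The neighbours Tgfb3 and Tgfb1, Tgfb1 and Fst, and Fst and Acvr2a overlapped, and the other neighbours did not. In NF-YA fl/fl the order by mean was Tgfb3 (35.4 to 51.4 TPM), Inhba (9.58 to 54.7 TPM), Fst (14.5 to 41.4 TPM), Tgfb2 (12.7 to 24.4 TPM), Smad7 (11.3 to 20.3 TPM), Acvr2a (11.3 to 14.2 TPM), Gdf11 (8.91 to 17.8 TPM), Tgfb1 (9.07 to 13.2 TPM), Mstn (7.27 to 12.1 TPM) and Acvr2b (0.57 to 1.06 TPM). There each gene overlapped its neighbour, except Mstn and Acvr2b.

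The spread between libraries was smaller in NF-YA cKO for each gene but Tgfb1. The coefficient of variation of the CPM values ran from 2.43% (Mstn) to 26.5% (Fst) in NF-YA cKO and from 0.505% (Tgfb1) to 61.3% (Inhba) in NF-YA fl/fl, beside medians of 7.97% and 20.7% over all tested genes. Mstn rested on 10, 13 and 14 counts in NF-YA cKO, too few for its spread there to be judged. In NF-YA fl/fl the coefficient was largest for Inhba, Tgfb2 (58.4%), Acvr2b (48.7%) and Fst (32.8%). In these 4 genes replicate 3 was the library farthest from the rest of its genotype, low in Inhba and Fst and high in Tgfb2 and Acvr2b.

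The wider pathway was examined in lists arranged by role, counted in the same fit and read against the shares of all tested genes given above (4.65% called higher and 7.67% lower, and 24.6% and 24.1% at an unadjusted p under 0.05). Of 14 ligand genes 9 were tested, and 4 were called lower and 0 higher (at an unadjusted p under 0.05, 5 lower and 1 higher; DESeq2, 4 and 0). The 4 were Mstn, Tgfb2, Tgfb3 and Inha, and the median log2 fold change of the list was -0.96. Without NF-YA cKO replicate 2 the number was 2. Inhbb, which encodes the subunit of activin B, had a log2 fold change of -0.23 (FDR = 0.438 from edgeR).

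Of 26 genes for secreted inhibitors, latency proteins and activators 23 were tested, with 2 called lower and 1 higher and a median of 0.10 (at an unadjusted p under 0.05, 6 lower and 3 higher; DESeq2, 3 and 2). Itgb6, whose product forms with the αv chain an integrin that releases TGF-beta from its latent complex, fell by 3.68 on the log2 scale, from 76.6 ± 7.58 to 5.98 ± 0.883 CPM (SD, n = 3; standard error of the log2 change 0.15, edgeR FDR = 5.06e-05), and was called in all 15 alternatives. Ltbp4, which encodes a latent TGF-beta binding protein, averaged 36.1 ± 1.52 CPM for NF-YA cKO against 72.3 ± 17.2 CPM for NF-YA fl/fl, only just past the fold threshold (edgeR FDR = 0.00530). It was called in 7 of 15 alternatives, and of the fits with a library left out in the one without NF-YA fl/fl replicate 2 alone. Without NF-YA cKO replicates 1, 2 and 3 the FDR of Ltbp4 was 0.0236, 0.0237 and 0.0222, without NF-YA fl/fl replicate 1 it was 0.0213, and without NF-YA fl/fl replicate 3 its log2 fold change was -0.82. Nrros, whose product anchors latent TGF-beta on macrophages, averaged 2.04 ± 0.977 CPM against 0.354 ± 0.183 CPM (log2 fold change 2.53, edgeR FDR = 0.00942). Nrros was called in 4 of 15 alternatives. Each of the 6 fits with a library left out lost the call, with FDR values that ran up to 0.0394 (NF-YA cKO replicate 2 left out). The macrophage markers moved in the same direction, and their part in the Nrros level was not tested. Lrrc32, another anchor of latent TGF-beta, was at 54.4, 37.5 and 57.2 CPM in NF-YA cKO but at 233, 171 and 21.5 CPM in the NF-YA fl/fl libraries, where replicate 3 again lay apart (log2 fold change -1.51, FDR = 0.142 from edgeR, and -2.03 with an FDR of 0.000531 without that replicate). Without NF-YA fl/fl replicate 3, 5 genes of the list were called lower.

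All 11 receptor and co-receptor genes were tested, and 0 were called in either direction (edgeR; at an unadjusted p under 0.05, 1 higher and 3 lower; DESeq2, 0), with a median of -0.25. Tgfbr1 and Tgfbr2, the receptors of TGF-beta, had log2 fold changes of 0.22 (FDR = 0.406) and 0.09 (FDR = 0.516). Acvr1b, a type I receptor of activin and myostatin, had -0.30 (FDR = 0.274). Without NF-YA fl/fl replicate 3, 1 receptor gene was called lower.

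Of 17 genes for Smads and their intracellular regulators 16 were tested and 0 were called (edgeR; at an unadjusted p under 0.05, 7 higher and 1 lower; DESeq2, 0), with a median of 0.18. Smad7 alone passed the FDR threshold. Smad2, Smad3 and Smad4 had log2 fold changes of 0.15 (FDR = 0.208), -0.31 (FDR = 0.273) and -0.06 (FDR = 0.636). For 10 of the 16 genes the CPM values of the genotypes did not overlap, which was the case for 55.3% of all tested genes. By direction, NF-YA cKO was above NF-YA fl/fl for 9 (29.1% of all tested genes) and below for 1 (26.2%).

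Of 15 known TGF-beta target genes, among them Ctgf, Skil and Smad7, all were tested and 0 were called (edgeR; at an unadjusted p under 0.05, 3 higher and 0 lower; DESeq2, 1 higher), and 1 was called higher without NF-YA fl/fl replicate 2. The median was 0.22. Ctgf overlapped between the genotypes, with a log2 fold change of -0.12 (FDR = 0.841).

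In the BMP arm, which acts through SMAD1, SMAD5 and SMAD9, all 20 genes were tested, with 2 called higher, 1 lower and a median of -0.10 (at an unadjusted p under 0.05, 6 and 6; DESeq2, 2 and 5). Chrd, which encodes the BMP antagonist chordin, fell by 3.73 on the log2 scale, from 13.7 ± 4.36 to 1.03 ± 0.164 CPM (SD, n = 3; standard error of the log2 change 0.29, edgeR FDR = 0.000347), and was called in all 15 alternatives. Id2, a BMP target that encodes an inhibitor of myogenic bHLH factors, rose from 56.6 ± 9.96 to 128 ± 9.27 CPM (log2 fold change 1.18, edgeR FDR = 0.00152), with an FDR of 0.0126 without NF-YA cKO replicate 2 and 0.0102 without NF-YA cKO replicate 3. It was called in 11 of 15 alternatives, and limma on log2(TPM + 1) and log2(TPM + 0.1) also lost the call (FDR = 0.0149 and 0.0125). Bmp7, which encodes a BMP ligand, averaged 0.834 ± 0.282 CPM against 0.122 ± 0.0242 CPM, near the level of 3 counts in NF-YA fl/fl (log2 fold change 2.72, edgeR FDR = 0.00318), and was called in 8 of 15 alternatives. Its FDR was 0.0132, 0.0115 and 0.0142 without NF-YA cKO replicates 1, 2 and 3 and 0.0159 without NF-YA fl/fl replicate 1. Without NF-YA fl/fl replicate 3, 4 genes of the arm were called higher and 4 lower.

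**Figure D4:**
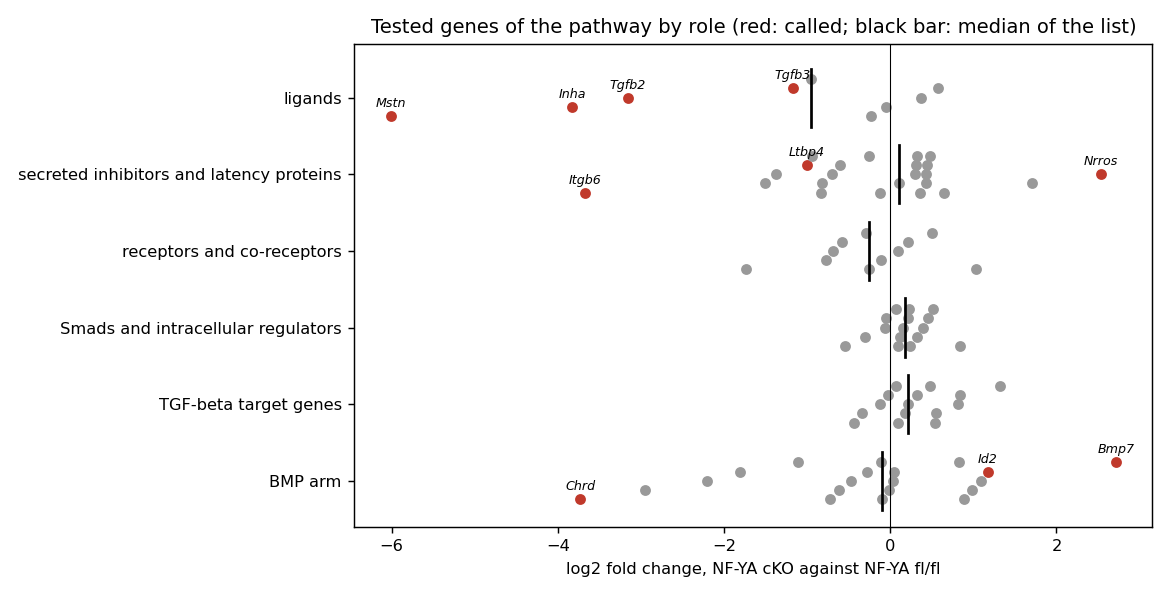
Log2 fold change (NF-YA cKO against NF-YA fl/fl) of every tested gene in 6 lists by role; red points are called and named, grey points are not, and the black bar is the list's median. The called genes lie between -6.01 (Mstn) and 2.72 (Bmp7), and the lists of receptors, Smads and TGF-beta targets hold no red point.

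The genes whose profiles were most like those of the called members were looked up over the 6 libraries, as Pearson's r of log2 CPM among the 9456 other genes whose mean reached 10 CPM. The nearest to Mstn were Zfp672, Tbl1xr1 and Itga4 (r of 0.999 for each). For Tgfb2 they were Mid1, Slc25a36 and Nf1 (0.999 for each), and for Tgfb3 Numbl, Adck3 and Lamc1 (0.998 to 0.996). An r above 0.95 was common, found for 723 genes with Mstn, 820 with Tgfb2 and 598 with Tgfb3, since the 6 libraries fall into 2 genotypes.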

How the data were processed

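RNA-seq libraries of SCs, 3 per genotype, were grouped by the genotype in the sample titles. The authors used Bowtie2 to map reads onto mm10 transcripts and RSEM to estimate abundance. Expected counts were deposited without normalization and need not be whole, since RSEM divides reads shared by several transcripts. TPM, as deposited, account for effective transcript length and have 1 total in all libraries, and the deposited percent values give each transcript's share of its gene's TPM. The deposited FPKM column was not used.

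Expected counts were rounded, and genes were kept if 2 or more libraries had over 10 counts (17348 of 35976). They were tested with edgeR 4.0.16 in R 4.3.3 by its quasi-likelihood test with TMM normalization, a model of genotype alone and Benjamini-Hochberg adjustment. CPM are counts relative to the TMM-normalized library size. The standard error is the log2 fold change divided by the square root of the F statistic, and 95% intervals use the test's degrees of freedom. Shares, ratios and transcripts were compared with exact permutation tests (scipy 1.17.1), whose smallest p is 0.1. The labels number the libraries without naming mice, so p-values measure the spread between these libraries. With 26936230 to 41118984 counts per library, that spread and not depth limits most comparisons.

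Members and lists were chosen with earlier results of these data known. Named were the 10 members, called genes of the lists, 6 canonical receptors and Smads, and the 3 genes most like each called member; Inhbb, Lrrc32, Ctgf and the markers given by name were chosen after their values were seen. Alternatives tried were the filterByExpr filter, no filter, DESeq2 1.42.0, edgeR with DESeq2 size factors, limma 3.58.1 on log2(TPM + 1) and log2(TPM + 0.1), counts without rounding, an FDR under 0.05, the replicate number as a block, and leaving out each library. Coordinates and protein lengths are from GENCODE M21 (GRCm38). Protein identity between ligands was not analysed here. The fit was tested on simulated counts. Plots were drawn with matplotlib 3.10.9.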

Additional observations from a re-analysis of the deposited data

How the results depend on the processing

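Over 15 alternatives no member was called higher, and Mstn kept its call in each. Leaving out each library in turn gave 1 to 5 members called lower, 177 to 890 of all genes called higher (806 with all libraries) and 523 to 1684 called lower (1331). Limma on log2(TPM + 1) called 231 genes higher and 704 lower, limma on log2(TPM + 0.1) called 361 higher, and an FDR under 0.05 gave 2025 lower. With a library left out the log2 fold change of Inhba lay from -0.068 to 0.75 and that of Acvr2b between -0.32 and 0.36, negative for Inhba and positive for Acvr2b only without NF-YA fl/fl replicate 3. The difference in the Tgfb3 share (NF-YA cKO minus NF-YA fl/fl) was -9.68 percentage points in TPM and 1.33 in expected counts, which are not scaled to length. Differences in transcript share that changed sign with a library left out lay from -0.077 to 0.71 percentage points for the 1529-nt Inhba transcript, -1.04 and 3.28 for the 344-residue Fst form and -0.86 and 2.21 for the 5681-nt Acvr2a transcript. The cause of these changes was not tested.

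The replicate number was tried as a block. Deviations from the group means correlated by 0.21, -0.10 and 0.05 between libraries of the same number. Between libraries of different numbers they correlated by -0.18 to 0.15, and not every library correlated best with its own number. With so few libraries per genotype, these values cannot decide whether libraries of the same number were handled together. With the replicate block 0 members were called higher and 3 lower, as without it, and of all genes 625 were called higher and 947 lower. Depth limits Mstn in NF-YA cKO, Bmp7 in NF-YA fl/fl and the minor Acvr2b transcripts, which rest on few counts.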
